A study of Homo sapiens with 12 samples.

Results

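In NT2/D1 cells, 188 array probes for 185 genes lay in 2 ascending steps over a 5-aza time course, with every 1 day array above every control array and every 3 day array above every 1 day array. The members were chosen by these values. Each probe carried a single gene symbol, had a detection p under 0.05 on all 9 control, 1 day and 3 day arrays, showed the stepwise order without overlap on log2 of the deposited normalized intensity, and had a 3 day mean at least 0.8 above the control mean. Of 10186 named probes for 8272 genes detected on those 9 arrays, 188 met the rule (1.85%). S100A10, CTSL and BBS2 were each represented by 2 member probes, which share a gene and are not independent. Because the 5-aza arrays and the control arrays chose the members, all 5-aza differences below are given as a description and none is tested.

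NT2/D1 is a pluripotent human embryonal carcinoma cell line derived from a testicular germ cell tumor. Its expression was measured on 12 Illumina HumanHT-12 v4 arrays in 4 groups of 3: cisplatin at 0.5 µM, given for 6 hours and then withdrawn for 24 hours, control, 10 nM 5-aza deoxycytidine (5-aza) for 1 day, and 10 nM 5-aza for 3 days with fresh drug each day. The control cells are called untreated in the labels of the samples and vehicle treated in the design of the series, and all groups are 1 cell line grown in the same serum-containing medium. All arrays lay on 1 chip in the order control, 1 day, 3 day, cisplatin, so the position on the chip and the group cannot be told apart, and the order of the steps is also the order of position. The study calls its groups biological triplicates, and it is not stated whether these were separate cultures, so p-values measure the spread between these samples.

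5-aza is a cytidine analog that is built into replicating DNA, where it traps DNA methyltransferases and lets CpG methylation fade over rounds of replication. Promoters that were silenced by methylation can then be transcribed, and the trapped enzymes and the strand lesions they leave can also switch on p53, the transcription factor that answers DNA damage. Cisplatin instead crosslinks DNA directly and is a strong activator of p53 in embryonal carcinoma cells, which makes it the comparison for genes that answer DNA damage in general.

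The sequences around the start of some members are shown first, because the demethylating action of the drug lies at CpG and because the members include interferon-stimulated genes, whose promoters often hold an interferon-stimulated response element (ISRE). RefSeq promoters, 300 bases running from 250 bases before to 50 bases after the annotated start in GRCh38.p14, were matched for 154 of the 185 genes. HES4 had the widest 3 day difference of all members and the CpG-rich promoter printed here, at chr1:1000048-1000347 on the minus strand, with its 44 CpG in capitals. ADGRG1, the member with the fourth largest difference, has a start at chr16:57619488-57619787 on the plus strand with 5 CpG, also in capitals. These 2 promoters thus differ in CpG density. Of the others among the 6 members with the largest differences, ZCCHC12 held 27 CpG, TAGLN3 10, S100A4 8 and NDRG4 7, beside a member median of 25.
HES4: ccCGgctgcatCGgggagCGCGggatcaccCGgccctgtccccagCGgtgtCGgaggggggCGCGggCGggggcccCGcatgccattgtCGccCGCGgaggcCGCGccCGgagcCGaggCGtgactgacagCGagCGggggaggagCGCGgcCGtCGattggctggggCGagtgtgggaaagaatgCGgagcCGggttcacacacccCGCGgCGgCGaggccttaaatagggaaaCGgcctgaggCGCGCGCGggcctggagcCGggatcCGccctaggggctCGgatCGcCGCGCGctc
ADGRG1: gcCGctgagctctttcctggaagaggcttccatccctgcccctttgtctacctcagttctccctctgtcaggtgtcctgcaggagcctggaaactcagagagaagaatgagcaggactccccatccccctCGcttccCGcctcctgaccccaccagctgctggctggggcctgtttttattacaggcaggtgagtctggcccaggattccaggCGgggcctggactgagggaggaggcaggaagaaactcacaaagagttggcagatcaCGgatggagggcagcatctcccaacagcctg

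The interferon members IFI6 (chr1:27672143-27672442, minus strand), IFITM1 (chr11:313790-314089, plus strand), HERC5 (chr4:88456869-88457168, plus strand) and ISG20 (chr15:88638766-88639065, plus strand) each held letters of the ISRE, searched as GAAA, any 2 bases and GAAA on either strand, which are set in capitals. IFI6 held 3 matches, at -156, -115 and -93 from the start. IFITM1 held 2, at -40 and -6. In HERC5 the 3 matches, at -125, -119 and -74, lie on the opposite strand, and the first 2 overlap. ISG20 held a single match at -69. They are shown because they hold the letters. The other 10 of the 14 interferon and immune members with a promoter in the table, grouped by hand, held 0 matches.
IFI6: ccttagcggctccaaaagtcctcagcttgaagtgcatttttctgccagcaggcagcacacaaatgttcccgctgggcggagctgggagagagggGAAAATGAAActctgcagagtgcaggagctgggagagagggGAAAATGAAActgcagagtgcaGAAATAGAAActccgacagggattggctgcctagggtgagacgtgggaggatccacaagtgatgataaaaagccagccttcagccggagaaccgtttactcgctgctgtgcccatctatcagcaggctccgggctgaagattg
IFITM1: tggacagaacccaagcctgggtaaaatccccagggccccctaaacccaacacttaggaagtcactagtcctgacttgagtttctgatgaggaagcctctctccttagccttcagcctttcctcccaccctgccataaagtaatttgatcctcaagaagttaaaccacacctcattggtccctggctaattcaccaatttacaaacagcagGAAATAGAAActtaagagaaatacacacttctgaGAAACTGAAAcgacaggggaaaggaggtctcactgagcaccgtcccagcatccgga
HERC5: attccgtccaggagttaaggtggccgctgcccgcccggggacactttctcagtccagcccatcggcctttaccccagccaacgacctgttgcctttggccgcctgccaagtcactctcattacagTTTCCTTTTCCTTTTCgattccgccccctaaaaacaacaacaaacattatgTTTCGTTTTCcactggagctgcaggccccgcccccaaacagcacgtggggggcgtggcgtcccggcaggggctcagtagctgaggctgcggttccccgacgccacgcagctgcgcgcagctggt
ISG20: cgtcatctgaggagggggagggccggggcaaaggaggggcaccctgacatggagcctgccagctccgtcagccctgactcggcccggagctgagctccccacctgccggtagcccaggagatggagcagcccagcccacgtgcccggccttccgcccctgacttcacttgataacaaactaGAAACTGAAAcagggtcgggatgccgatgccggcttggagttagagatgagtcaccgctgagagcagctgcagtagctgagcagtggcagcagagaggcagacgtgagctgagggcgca

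Over all members the ISRE letters were found in 9 of 154 promoters (5.84%), those of ATF5, CCDC28B, EMP3, GALT, HERC5, HSPBAP1, IFI6, IFITM1 and ISG20, beside 174 of 6845 promoters of all genes detected on the 9 arrays (2.54%). The GC box GGGCGG, the letters bound by SP1, stood in 125 member promoters (81.2%), beside 71.6% of all detected genes and 63.9% of 72 stepwise falling genes (falls of at least 0.8). The E-box CACGTG was found in 17 (11.04%, beside 10.96%), the AP-1 letters TGANTCA in 9 (5.84%, beside 3.94%), the p53 decamer in 8 (5.2%, beside 5.06%) and the C/EBP-ATF letters TGATGNAA in 2 (1.3%, beside 1.53%), searched on both strands. CpG itself was no denser in members. The median promoter held 25 CpG, beside 27 over all detected genes, and the ratio of observed to expected CpG was 0.774, beside 0.855. A ratio under 0.4, a CpG-poor start, was found for 17 members (11.04%) and 503 of all detected genes (7.35%). These are descriptions of the letters in a fixed window. Methylation was not measured on these arrays.

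**Figure D1:**
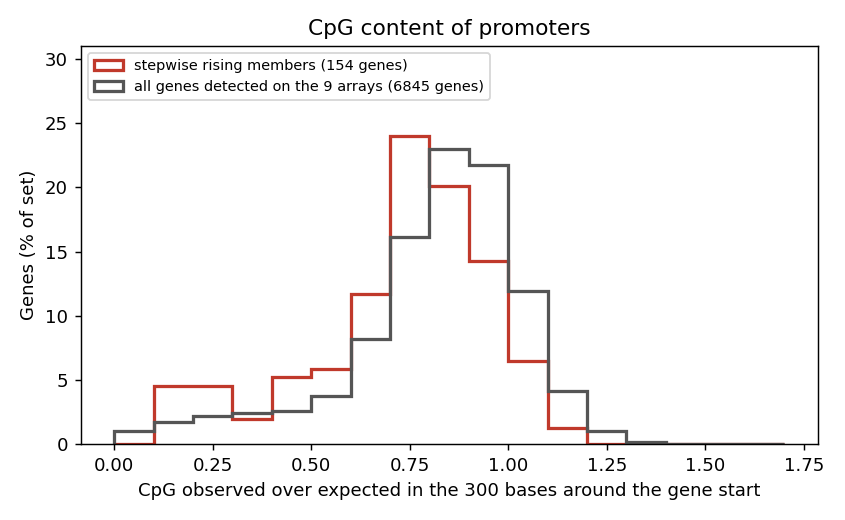
Ratio of observed to expected CpG in the 300 bases around the gene start (x axis) for the 154 members and all 6845 detected genes with a promoter in the table, each as a percentage of its set (y axis). The member curve lies to the left of the other, with medians of 0.774 and 0.855.

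On the log2 scale of the deposited intensities, which were not background-subtracted and so understate the change of dim probes, the members stood 0.13 to 0.79 above control after 1 day (median 0.33, 1.26-fold) and 0.80 to 2.64 above control after 3 days (median 1.03, 2.04-fold). The same differences over all 10186 detected probes had medians of 0.01 and -0.01. After 3 days 101 members were at least 1 above control, 20 at least 1.5 and 3 at least 2. Their control level was moderate, with a median of 8.91 beside 9.29 for all detected probes, and 121 of the 188 lay below 9.29. In the heat map of values by array the 3 day arrays look alike and the cisplatin arrays differ from each other. Array medians over the members, relative to the control mean, were 0.28, 0.52 and -0.18 on the cisplatin arrays, -0.14, 0.04 and 0.11 on the control arrays, between 0.30 and 0.37 on the 1 day arrays and between 1.00 and 1.07 on the 3 day arrays. Control replicate 1 was the lowest control for 142 of the 188 members.

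**Figure D2:**
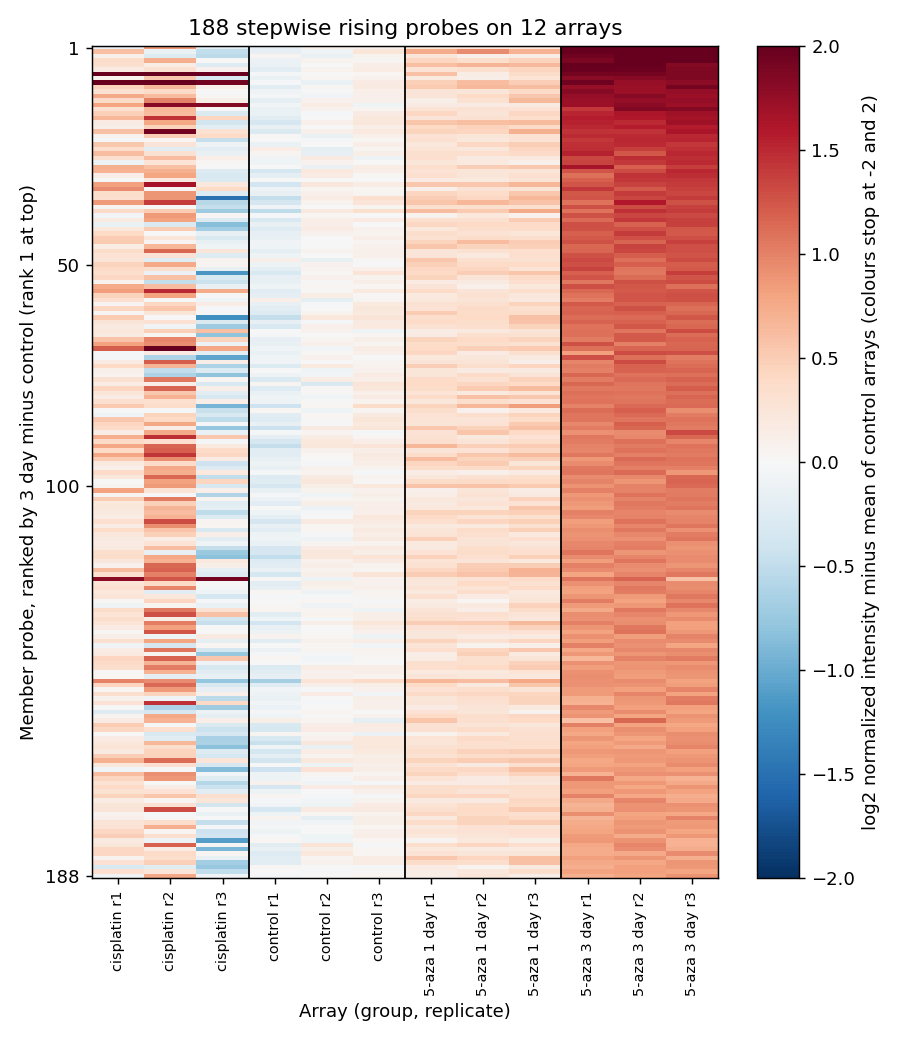
Each line is a member probe, ranked by its 3 day minus control difference, and each column an array in the order cisplatin, control, 1 day and 3 day 5-aza. Colour gives log2 intensity minus the mean of the 3 control arrays, with colours ending at a difference of 2 in either direction. The 3 day columns are red throughout, the 1 day columns pale red, and the cisplatin columns mixed, with replicate 3 mostly blue.

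The first step was the small one. A median of 30.9% of the 3 day difference was present at 1 day (7.93% to 77.7%). It was under 20% for 32 members and at least 50% for 13. The gap between the highest control and the lowest 1 day array had a median of 0.12 and was under 0.05 for 30 members, whereas the gap between the highest 1 day and the lowest 3 day array had a median of 0.55 and was under 0.05 for 2. In the limma fit over all 14295 tested named probes no probe was called at 1 day in either direction at an adjusted p under 0.05 (0% called). At an unadjusted p under 0.05, 402 probes had a higher and 345 a lower value. About as many of 14295 probes reach that threshold when no probe differs, so no 1 day difference is read from these counts. At 3 days 1325 probes were called higher (9.27%) and 1014 lower (7.09%). Any stepwise rise without overlap was shown by 621 detected probes (6.1%) and a stepwise fall by 397 (3.9%). Falls of at least 0.8 numbered 87 (0.854%). Of 317 detected probes at least 0.8 above control at 3 days, 188 were stepwise (59.3%). The other 129 had a median 3 day difference of 0.97. The 1 day arrays overlapped the controls for 126 of them and lay below all controls for 3, so for all 129 the order failed at the first step. An overlap does not mean that a 1 day difference was absent.

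**Figure D3:**
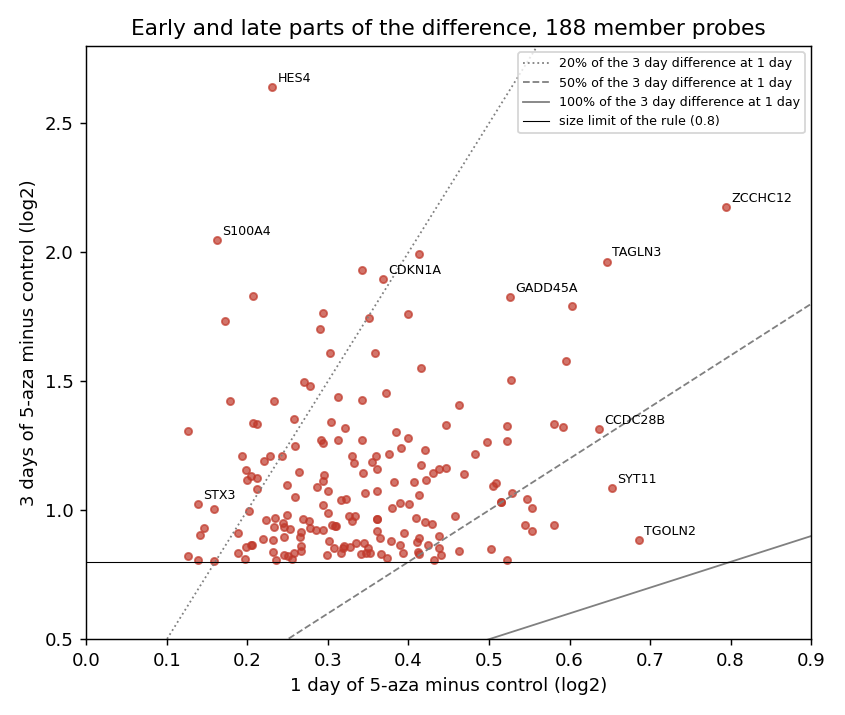
Difference from control after 1 day (x axis) and after 3 days of 5-aza (y axis), both log2, with a point for each of the 188 members. Dotted, dashed and solid lines mark 20%, 50% and 100% of the 3 day difference present at 1 day, and the thin level line the limit of 0.8. HES4 and S100A4 lie in the upper left and TGOLN2 and SYT11 in the lower right.

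Transcriptional regulators led the members. HES4, a basic helix-loop-helix repressor of the Notch pathway, had log2 intensities of 7.94, 8.23 and 8.22 on the control arrays, 8.37, 8.37 and 8.34 after 1 day, and 10.66, 10.84 and 10.81 after 3 days. Nearly all of its difference, 2.64 or 6.23-fold, came in the second step, with 8.74% present at 1 day. ZCCHC12, a zinc-finger coactivator of BMP signaling, measured 8.13, 8.22 and 8.54 in control, 9.03, 9.24 and 9.0 after 1 day, and 10.43, 10.43 and 10.56 after 3 days. It had the largest 1 day difference of the members, 0.79, and a 3 day difference of 2.17. Roles were assigned by hand after the values were seen, here and below, and carry no test. Among the 20 genes of transcription and chromatin the median 3 day difference was 1.28. They included the AP-1 subunit JUN (1.43), the immediate early factor EGR1 (1.33), the Krüppel-like factors KLF6 (1.19) and KLF9 (1.34), and BHLHE40 (1.46), a repressor of circadian and hypoxic genes. KLF9 was among the dimmest members, at 7.72, 7.72 and 7.71 in control, 7.87, 7.91 and 7.99 after 1 day, and 8.91, 9.13 and 9.13 after 3 days. POLR3GL, a subunit of RNA polymerase III, stood 1.76 above control, and its neighbor TXNIP, a thioredoxin inhibitor, 1.70.

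Cytoskeleton and adhesion genes numbered 24, with a median 3 day difference of 1.14. S100A4, a calcium-binding protein linked to cell motility, measured 8.23, 8.04 and 8.25 in control, 8.42, 8.27 and 8.31 after 1 day, and 10.10, 10.21 and 10.35 after 3 days. Its share at 1 day, 7.93%, was the smallest of all members, and its lowest 1 day array cleared the highest control narrowly. The S100 members S100A10 (1.27 on both probes) and S100A13 (0.95) were bright already in control. ITGA5, the fibronectin receptor subunit alpha 5, measured 7.66, 7.94 and 8.06 in control, 8.41, 8.54 and 8.51 after 1 day, and 9.62, 9.61 and 9.80 after 3 days. TAGLN3, an actin-binding protein of neurons, stood 0.65 above control after 1 day and 1.96 after 3 days. RIPOR1 stood 0.21 above control after 1 day and 1.83 after 3 days. CLIP3, a microtubule-linked protein, and PRSS8, a membrane-anchored serine protease, were among the 8 members with the largest 1 day differences, at 0.60 and 0.59. LMNA, the nuclear lamina protein, and CDH1, the epithelial cadherin, stood 1.14 and 1.12 above control after 3 days. In a list of actin cytoskeleton and contractility genes, 1 of 44 detected on the 9 arrays was a member (LMNA). RHOB, RHOC and TPM2 were stepwise below the limit, ACTB and ACTN4 were stepwise falling, and the 3 day median was 0.006. In an extracellular matrix list 2 of 25 were members, 3 were stepwise below the limit and LAMB1 and THY1 fell stepwise (median 0.18). In a list of S100, annexin and galectin genes 3 of 9 were members and 0 fell stepwise (median 0.53).

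**Figure D4:**
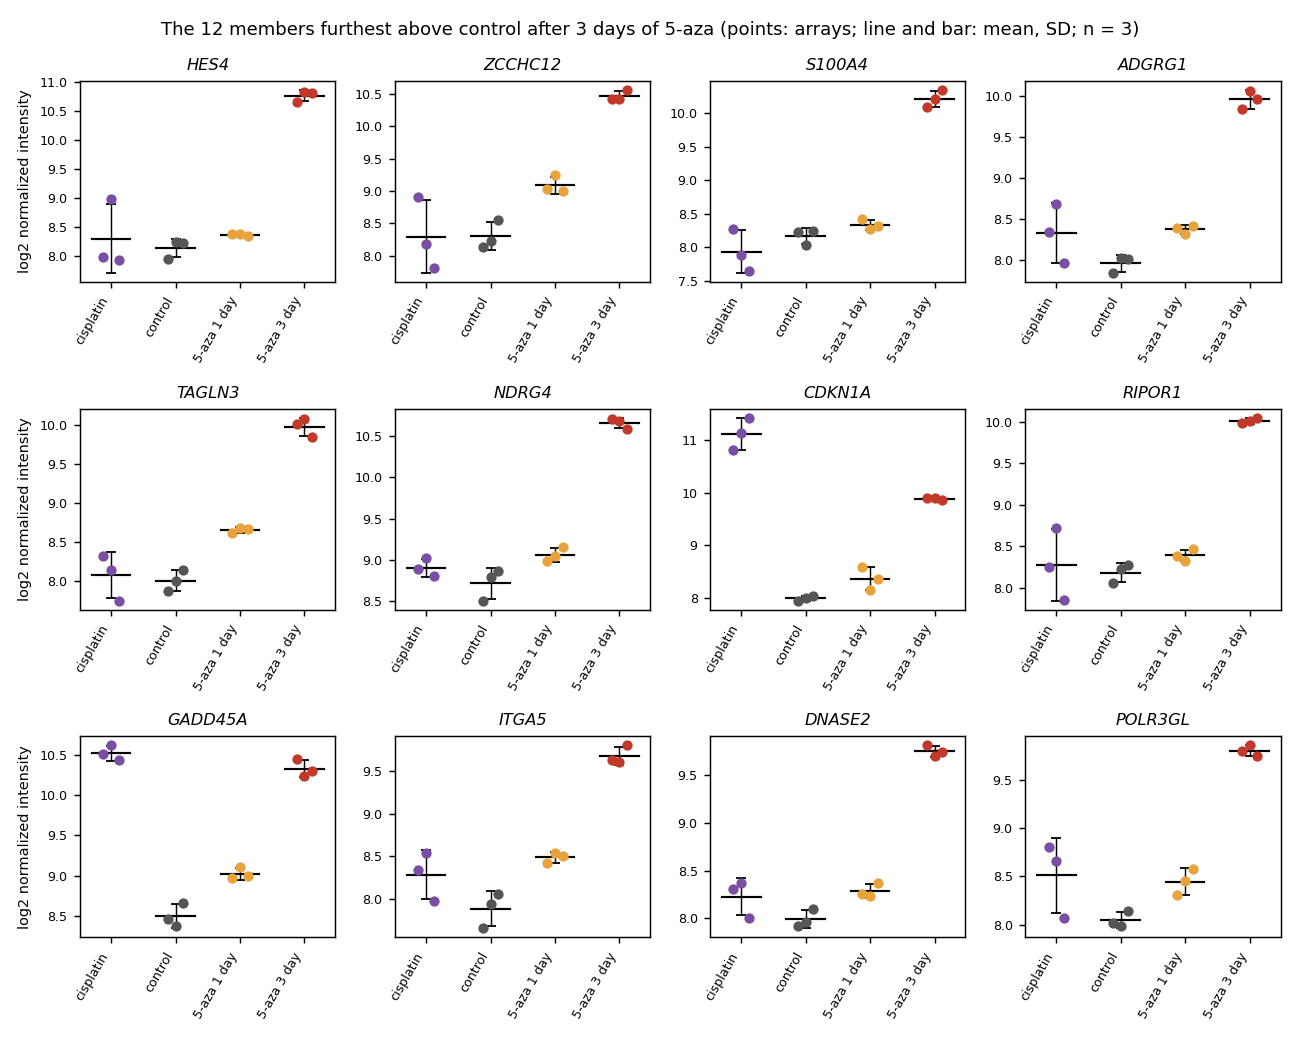
Log2 normalized intensity (y axis, own range in each panel) of the 12 members with the largest 3 day difference, in the groups cisplatin, control, 1 day and 3 day 5-aza. Points are arrays, lines means and bars SD (n = 3). In each panel the 3 day points lie clear of the 1 day and control points, and only for CDKN1A do the cisplatin points lie above them all.

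Receptors and signaling proteins were represented by 16 genes (median 1.02). ADGRG1, an adhesion G protein-coupled receptor, measured 7.84, 8.03 and 8.01 in control, 8.40, 8.32 and 8.42 after 1 day, and 9.84, 10.06 and 9.96 after 3 days. SMAD6, an inhibitor of BMP signaling, stood 0.96 above control, the Notch-modifying glycosyltransferase LFNG 1.03 and the secreted Wnt modulator DKK3 0.81. In a list of HES, HEY and ID repressors with Notch and BMP signaling genes, 2 of 17 detected genes were members (HES4 and SMAD6). DLL1, ID2 and JAG1 were stepwise below the limit, SMAD7 was stepwise falling, and the list median was 0.32 at 3 days. Another probe for DKK3 was stepwise too, with a 3 day difference of 0.79, just short of the limit.

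Neuronal and synaptic genes numbered 12 (median 1.03). NDRG4, a cytoplasmic protein abundant in brain and heart, measured 8.51, 8.79 and 8.86 in control, 8.99, 9.04 and 9.16 after 1 day, and 10.70, 10.68 and 10.58 after 3 days. HTR3A, a serotonin-gated channel subunit, stood 1.48 above control. SYT11, a synaptotagmin of vesicle traffic, was bright, at 10.95, 11.41 and 11.74 in control, 11.81, 12.04 and 12.20 after 1 day, and 12.36, 12.49 and 12.49 after 3 days, with 60.2% of its difference at 1 day. A list of neural and homeobox lineage genes had no member among its 20 genes detected on the 9 arrays. The summed intensity of 5 neuron markers on the array was 6775 to 9167 in control, 9245 to 10221 after 1 day and 9589 to 10167 after 3 days, and STMN2 was not detected on all control or 1 day arrays. The summed pluripotency markers, 9 of 10 detected in every group with ZFP42 the exception, were 61249 to 61516 in control, 57204 to 60604 after 1 day and 46880 to 50856 after 3 days. After cisplatin the sums were 7208 to 11134 for the neuron and 44874 to 58099 for the pluripotency markers, so the latter were below control there too. The part of these markers in the members' differences was not tested. In bulk RNA, fewer cells of a type and less RNA per cell cannot be told apart. Of 7 fibroblast markers 2 to 3 were detected per group, and of 4 blood markers 0.

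Lysosome and autophagy genes numbered 12 (median 1.16). DNASE2, the acid nuclease that digests DNA in lysosomes, measured 7.92, 7.96 and 8.10 in control, 8.25, 8.23 and 8.37 after 1 day, and 9.81, 9.70 and 9.74 after 3 days, a difference of 1.76. NPC2, which carries cholesterol out of lysosomes, stood 1.25 above control. CTSL, a lysosomal cysteine protease, stood 1.22 and 1.16 above control on its 2 member probes. MAP1LC3A, an autophagosome coat protein, stood 1.16 above control. Of the 36 genes of an autophagy and lysosome list detected on the 9 arrays, 3 were members, 3 more were stepwise below the limit (CTSH, LAMP2 and ULK1) and 1 was stepwise falling (LAPTM4B). The list's median 3 day difference was 0.13, beside 0.01 for all tested genes.

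Interferon and immune genes numbered 16 (median 1.12). HELZ2, a helicase-like coactivator, had the largest difference of them and measured 8.499, 8.75 and 8.77 in control, 8.78, 8.97 and 9.32 after 1 day, and 10.40, 10.42 and 10.43 after 3 days. IFI6, an interferon-induced mitochondrial protein, stood 1.22 above control. HERC5, the ligase that attaches ISG15 to proteins, stood 1.21 above control, and UBE2L6, the conjugating enzyme of the same reaction, 0.98. IFITM1, a membrane protein that restricts virus entry, stood 1.04 above control and the exonuclease ISG20 0.89. In the list of interferon response and MHC class I genes, 18 were detected on the 9 arrays, 3 were members, 2 more were stepwise below the limit (BST2 and MX1) and 0 were stepwise falling, with a list median of 0.21 at 3 days. On chromosome 6 the stress ligand MICB (1.27) and HCP5 (1.18) are adjacent among measured genes. Such adjacent pairs were also formed by POLR3GL and TXNIP on chromosome 1, PLEKHH3 and CNTNAP1 on chromosome 17, and MYPOP and PNMA8A on chromosome 19.

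Growth arrest and DNA repair genes numbered 10 (median 0.91). CDKN1A, the p53-driven cyclin-dependent kinase inhibitor p21, measured 7.95, 7.99 and 8.04 in control, 8.58, 8.14 and 8.36 after 1 day, and 9.90, 9.90 and 9.85 after 3 days, a difference of 1.90. GADD45A, a p53-driven stress sensor, measured 8.46, 8.37 and 8.66 in control, 8.97, 9.11 and 8.99 after 1 day, and 10.44, 10.24 and 10.29 after 3 days. SESN1, a p53-driven inhibitor of mTORC1, stood 0.94 above control, with the 3 day arrays more spread at 9.06, 9.17 and 8.59. NINJ1, a membrane protein of plasma membrane rupture and a p53 target, stood 0.84 above control. These 4 were the members among 31 detected genes of a list of p53 targets. FUCA1 and TNFRSF19 were stepwise below the limit, PMAIP1 was stepwise falling, and the list median was 0.22 at 3 days.

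Stress factors numbered 8 (median 0.90). CEBPB, a leucine zipper factor of stress and inflammation, measured 9.75, 9.99 and 10.19 in control, 10.24, 10.28 and 10.33 after 1 day, and 11.54, 11.58 and 11.64 after 3 days. PPP1R15A, the phosphatase subunit that restores translation after stress (1.21), and ATF5, a stress-induced factor (1.07), belonged with CEBPB and the amino acid transporter SLC7A5 (0.84) to the list of ATF4, CHOP and unfolded protein response genes, where 4 of 31 detected genes were members and the median was 0.30. Metabolic enzymes and transporters made up a further 29 genes (median 1.01), from TXNIP to GALK1. The members included 0 of 44 detected oxidative phosphorylation genes, 0 of 34 MYC and ribosome biogenesis genes, 0 of 19 apoptosis and BCL2 family genes, 0 of 17 pluripotency genes, 0 of 13 imprinted, 0 of 11 histone and 0 of 2 germline genes. Beside 185 members among the 8272 detected genes, nothing is read from a count of 0 in lists this short. The counts of members in the lists above stand beside the same share and carry no test. In the pluripotency list DNMT3B and NANOG were stepwise falling among 17 detected genes, and the list median was -0.47. The remaining 38 member genes were not assigned a role.

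Some early differences rested in part on control replicate 1. Without it 6 of the 13 members with a share of at least 50% at 1 day stayed at or above that share. TGOLN2, a receptor that cycles through the trans-Golgi network, measured 9.30, 10.24 and 10.34 in control, 10.63, 10.58 and 10.73 after 1 day, and 10.87, 10.90 and 10.76 after 3 days. Its 1 day difference of 0.69 was 77.7% of the 3 day difference, and without control replicate 1 the differences were 0.36 at 1 day and 0.55 at 3 days. CCDC28B, linked to cilia, had a 1 day difference of 0.64 with and 0.39 without that array, and CLIP3 0.60 and 0.42. ZCCHC12, TAGLN3 and ITGA5 kept 0.71, 0.58 and 0.49. Another detected probe for CCDC28B stood 0.10 above control at 1 day and 0.32 at 3 days, with all arrays kept, and was not stepwise. At the limit, GALK1 (0.80), DKK3 (0.81) and MEIOB (0.81) lay just inside, and XYLT2 (0.798), IGSF11 (0.798) and SMIM14 (0.796) just outside.

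Other probes of the member genes allow a check on sequence, though not on samples, since they were read on the same arrays. There were 26 such probes for 22 genes. At 1 day their differences from control ran from -0.26 (TUBG1) to 0.29 (APBB3), beside 0.13 to 0.79 for the member probes. Most lay below the smallest member difference and several below control, so the first step was mostly not seen on them. At 3 days 23 lay above control and 3 below, with a median of 0.32, and 3 were stepwise (for APBB3, DKK3 and PNMA8A). GADD45A (0.95), IFI27L2 (0.99) and ZNF823 (0.81) passed 0.8 on the other probe without being stepwise. The other probe for LARP6 had a difference of -0.27 beside 1.498 on the member probe, and the other probes for TUBG1 had differences of -0.02 and 0.00345, beside 0.81. In all, 10 of the 26 probes, for 8 genes (CHMP2A, DPP7, FOXRED2, GAMT, LARP6, TCEA2, TUBG1 and WDR33), lay under 0.2, so for these genes the probes disagree. A value above 0.2 does not mean that the probes agree. CCDC28B (0.32, beside 1.31) and UBE2L6 (0.31, beside 0.98) fell well short of the member probe, whereas DKK3 (0.79, beside 0.81) was close.

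By chromosome, in the RefSeq annotation, 16 members lay on chromosome 16 (8.65% of member genes, beside 4.91% of measured genes) and 19 on chromosome 19 (10.3%, beside 6.56%), while chromosomes 4, 8, 13 and 22 held 1 each and chromosome 18 none of its 112 measured genes.

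Whether these genes also answered a DNA crosslinking drug was asked with the cisplatin arrays, which the rule did not use. The control arrays of this comparison are those that the rule required to be low. The fit pools 1 variance per probe over all 12 arrays, 9 of which the rule used. An order without overlap favors a small spread within those groups, so the SE and p-values of members may be too small. After cisplatin the members stood -0.56 to 3.13 from control with a median of 0.20, beside -0.05 for all detected probes. In the limma fit, with p adjusted over 14295 named probes, 8 members were called higher, while 0.884% of the detected probes and 0.923% of all tested probes were called higher. No member was called lower by limma (0.609% and 0.455%). At an unadjusted p under 0.05, 52 members were higher (10.2% of detected probes) and 6 lower (16.3%). The cisplatin arrays lay above all controls for 28 members (6.14% of detected probes), below all controls for 2, EFR3B and MEIOB (10.9%), and overlapped the controls for 158.

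CDKN1A changed most. It measured 10.81, 11.14 and 11.42 after cisplatin, against 7.95, 7.99 and 8.04 in control, a difference of 3.13 ± 0.15 (SE; limma adjusted p = 2.9e-07). GADD45A measured 10.51, 10.61 and 10.43 after cisplatin, against 8.46, 8.37 and 8.66 in control (2.02 ± 0.11, limma adjusted p = 6.67e-07). SESN1 measured 9.81, 9.26 and 9.91 after cisplatin, against 8.02, 7.89 and 8.09 in control (1.66 ± 0.18, limma adjusted p = 0.000517). All 3 are p53 targets, and in that list 14 of 45 tested genes were called higher and 0 lower after cisplatin, with a median of 0.46 beside -0.02 for all tested genes.

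The other 5 called members are not in the p53 list. EMP3, a membrane glycoprotein, measured 10.17, 11.20 and 11.22 after cisplatin, against 9.33, 9.53 and 9.30 in control (1.48 ± 0.22, limma adjusted p = 0.00518). LMNA measured 9.50, 10.33 and 9.06 after cisplatin, against 8.19, 8.22 and 8.43 in control (1.35 ± 0.23, limma adjusted p = 0.0128). RHBDF1, an inactive rhomboid that guides growth factor shedding, was 1.03 ± 0.17 higher after cisplatin (limma adjusted p = 0.0122). GAMT, the last enzyme of creatine synthesis, was 0.91 ± 0.19 higher (limma adjusted p = 0.0392), and ACCS 0.66 ± 0.14 higher (limma adjusted p = 0.0349). GAMT lost its call in 11 of 21 alternative fits and ACCS in 12, among them each fit that left out a control or 5-aza array. In each of the 8 all cisplatin arrays lay above all controls, but with only the 6 cisplatin and control arrays in the fit 2 of the 8 remained called. CEBPB missed the threshold at 0.84 ± 0.20 (limma adjusted p = 0.0615).

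**Figure D5:**
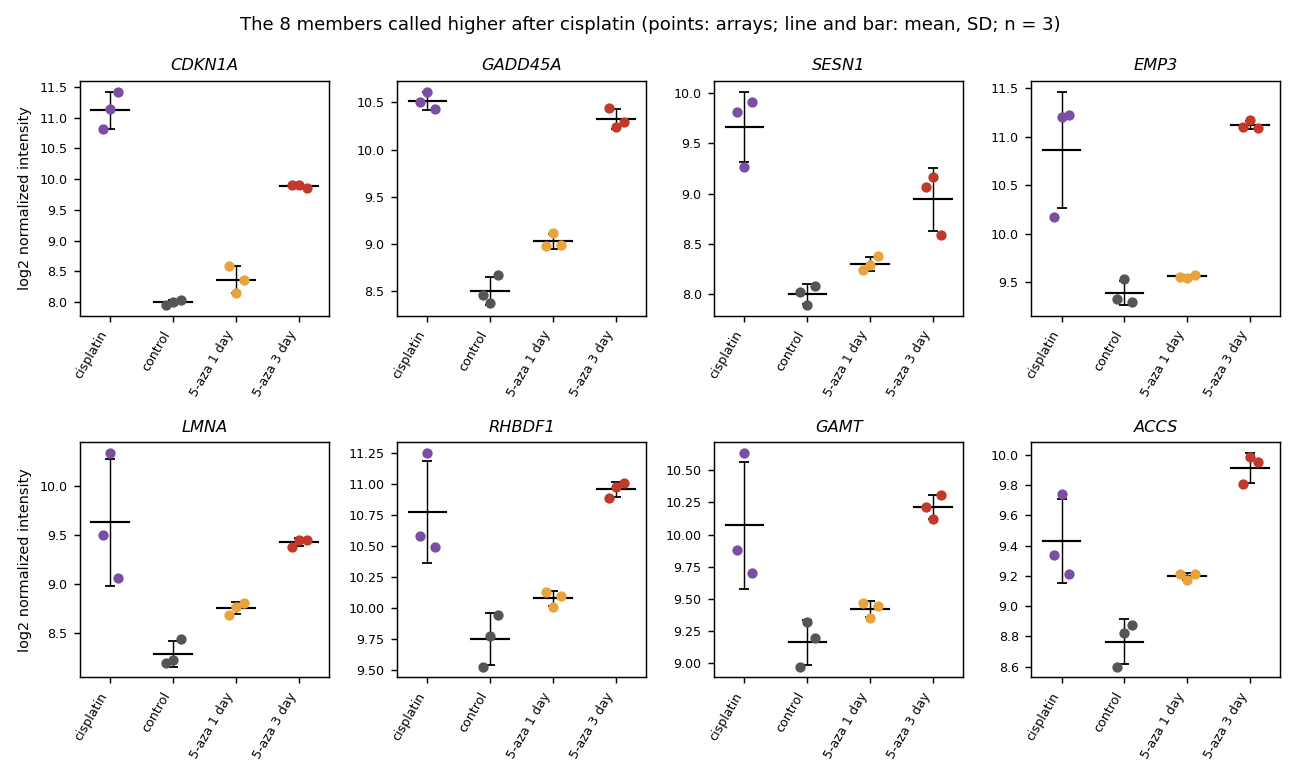
Log2 normalized intensity (y axis, own range in each panel) of the 8 members called higher after cisplatin, in the groups cisplatin, control, 1 day and 3 day 5-aza. Points are arrays, lines means and bars SD (n = 3). All cisplatin points lie above all control points, and only for CDKN1A and SESN1 do they all lie above the 3 day points.

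Most members lay lower after cisplatin than after 3 days of 5-aza. For 144 members every cisplatin array lay below every 3 day array (20.5% of detected probes), for 42 they overlapped, and for CDKN1A and SESN1 every cisplatin array lay above. The 3 day arrays were used by the rule, so these counts are a description. HES4 measured 7.98, 8.98 and 7.92 after cisplatin, within or near its control range on 2 arrays and above it on the other. ZCCHC12 measured 8.91, 8.17 and 7.80 and S100A4 8.28, 7.89 and 7.64 after cisplatin. TAGLN3 measured 8.33, 8.15 and 7.75 after cisplatin. Limma called none of these 4 in either direction, with an adjusted p of 0.697 for HES4, 0.993 for ZCCHC12, 0.368 for S100A4 and 0.814 for TAGLN3.

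The cisplatin arrays differed among themselves, and the members followed that difference. The median SD per probe was 0.254 among cisplatin arrays, against 0.125 in control. Replicate 3, with 19824 probes detected against 15435 to 17566 on all other arrays, was the lowest cisplatin array for 163 members, and 60 members lay above the control mean on it, against 171 on replicate 1 and 160 on replicate 2. The median cisplatin difference of the members, 0.20, was 0.40 without cisplatin replicate 3, 0.04 without cisplatin replicate 2 and 0.11 without control replicate 1. Without cisplatin replicate 3, 58 members were called higher (3.48% of all tested probes). Without replicate 1, 27 members were called higher (12.6%) and 10 lower (15.9%). Without control replicate 1 or 2 the count of higher members was 4 each time (0.301% and 0.28% of all tested probes). CDKN1A, GADD45A, SESN1 and EMP3 were called in each fit that left out 1 array.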

How the data were processed

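The authors extracted RNA with Trizol, labelled cRNA with the Ambion MessageAmp kit and processed the scans in GenomeStudio (version not given in the sources used here). They deposited a table of mean bead intensity of 47231 probes, a detection p-value beside each intensity, and a table of 47226 probes after quantile normalization between arrays. Both tables are linear and were not background-subtracted. Log2 was taken here of the deposited normalized intensity. Symbols came from the platform annotation: 30112 probes had 1 symbol, 8 had several and 17106 had none.

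The 14295 named probes detected (p under 0.05) on 3 or more arrays were fitted with a mean per group in limma 3.58.1 (lmFit and eBayes, R 4.3.3), and p-values of cisplatin minus control were adjusted by Benjamini-Hochberg, two-sided. The fit was tested on simulated data. Median intensity was 154.3 to 188.4 units per array before normalization, and 3 arrays per group limit the precision.

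Named in the text were the 12 members with the largest 3 day and the 8 with the largest 1 day difference, the 6 called members with the largest cisplatin difference, the members and the probes next to the limit, genes of 21 lists, and genes with more than 1 member probe. Members named beyond this rule complete a count or illustrate a role and were chosen after their values were seen. The members, lists and tests were chosen with earlier results of these data known. Alternatives were neqc background correction (offset 16), median scaling, cyclic loess, other detection and size limits, array weights, the brightest probe per gene, the replicate number as a block, and leaving out each array. BTG2 was not analysed here.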

Additional observations from a re-analysis of the deposited data

Results flagged for a closer look

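Probes without a single gene symbol stood outside the comparisons, and 18 of 2255 such probes detected on the 9 control and 5-aza arrays met the same stepwise rule (0.798%, beside 1.85% of named probes). Their 3 day differences ran from 0.81 to 1.65 with a median of 0.99, and their cisplatin differences from -0.29 to 0.66. They are unnamed here and were not tested.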

How the results depend on the processing

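The number of stepwise probes, 188, was 317 after neqc background correction (all 188 among them), 80 after median scaling (75 shared), 433 with a limit of 0.5 and 101 with a limit of 1, and 167 to 262 when 1 array was left out, lowest without control replicate 1 and highest without control replicate 3. Cyclic loess (191) and a detection p under 0.01 (180) stayed within 1.5 times. Median scaling put the median of all detected probes at -0.20 at 3 days. Relative to that shift the members stood 0.98 above control, against 1.04 with the deposited values. The median 1 day difference of 0.33 was 0.44 with neqc and 0.26 to 0.39 with 1 array left out. The median 3 day difference of 1.03 was 1.30 with neqc, 0.78 with median scaling and 0.95 to 1.10 with 1 array left out. The median share present at 1 day was 37.7% with median scaling and 25.7% to 34.9% with 1 array left out.

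The 8 members higher after cisplatin numbered 15 with median scaling (0.895% of all tested probes) and 2 with only the cisplatin and control arrays (0.035%). They numbered 62 with array weights (7.74%), 4 at an adjusted p under 0.01, and 4 to 58 with 1 array left out (3.48% for the 58). Members called lower, 0 in the limma fit, numbered 3 with array weights (7.62% of all tested probes) and 0 to 10 with 1 array left out (15.9% for the 10). Over all tested probes the split of higher to lower calls was 132 to 65, but 128 to 10 with median scaling and 189 to 45 with cyclic loess. The replicate number does not pair the samples, since only 2 of 18 same-numbered pairs correlated above 0.1 in their deviations from the group means. Some arrays of unlike number shared deviations, with r of 0.56 for control replicate 1 and cisplatin replicate 3. For control replicate 3, r was 0.43 with cisplatin replicate 1 and -0.55 with cisplatin replicate 3. With the replicate number as a block 6 members were called higher (0.56% of all tested probes) and all 6 were among the 8. Among the members named by rule no cisplatin difference with a call changed sign, 8 comparisons lost the threshold and 23 gained it. RHBDF1 and LMNA lost it without control replicate 1 or 2. GAMT and ACCS, which the rule does not name, lost it with the replicate block, with only the cisplatin and control arrays and without each control or 5-aza array, and ACCS also without cisplatin replicate 2. The causes were not tested. Signal near background limits the dim members, whose 3 day differences are larger after background correction, as for HES4 (3.38 with neqc).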
